A study of Mus musculus with 4 samples.

Results

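The proteasome subunit genes of the mouse heart were followed across tumor and exercise. A gene belonged to the set when its symbol began with Psma, Psmb, Psmc, Psmd, Psme, Psmf or Psmg and ended in a number, and when its mean normalized read count over the 4 heart libraries was at least 4. In all, 48 symbols matched, each on a single row, and all 48 passed this minimum, among 13725 genes that passed it. The lowest means were 4.09 for Psmb11 and 9.55 for Psma8, and the other 46 genes had a mean of at least 16. Shfm1 and Adrm1, which also encode regulatory particle subunits, have other symbols and are counted among the proteasome partners.

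The study asked how high-intensity aerobic exercise acts in mice with disseminated colorectal cancer, and sequenced heart mRNA of 4 groups of male CDF1 mice whose labels give an age of postnatal day 28. The paper states that the mice were 4 weeks old when purchased and that tissues were taken at the end of the experiment. The label may therefore give the age at purchase and not at sampling. E(−)T(−) mice had neither exercise nor tumor cells, E(+)T(−) mice ran on a motorized treadmill, E(−)T(+) mice received CT26 cells, a mouse colorectal carcinoma line, through the tail vein, and E(+)T(+) mice had both. A group held 10 mice and gave 1 heart library, and the sources used here do not say whether a heart library came from 1 mouse or from several. With 1 library per group there is no replicate check, and no test of a condition was made, so that every difference here is between libraries. The 4 values of a gene are always given in the order in which the groups are named above, and unless other units are named they are normalized read counts. Tumor differences are those of a T(+) library against the T(−) library with the same exercise, and exercise differences those of an E(+) library against the E(−) library with the same tumor state.

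The 26S proteasome degrades proteins that carry ubiquitin chains. Its barrel, the 20S core, is built of rings of alpha subunits around rings of beta subunits, and Psmb5, Psmb6 and Psmb7 encode the beta subunits that cut peptide bonds. The 19S regulatory particle caps the barrel, and consists of a base of ATPases that unfold and thread the substrate and a lid that removes ubiquitin. Interferon gamma induces Psmb8, Psmb9 and Psmb10, whose products take the places of the constitutive catalytic subunits in newly made barrels and so form the immunoproteasome, known for making peptides for MHC class I. In striated muscle the ubiquitin-proteasome pathway is known for the breakdown of contractile proteins during wasting.

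The deposited values are log2(normalized read count + 1), and whole reads were recovered from them. The libraries held between 6595421 and 11545965 reads. In E(+)T(+), 37.3% of the reads came from globin genes, compared with 7.86% to 8.76% in the other 3 libraries. All 8 cardiomyocyte markers, including Myh6 and Tnnt2, had reads in every library, with a summed normalized read count between 331282 and 392453. Single markers differed more than this sum. Without exercise, 4 of the 8 were higher and 4 lower with tumor, with log2 fold changes from −0.87 for Nppa to 0.84 for Ryr2. Under scaling to library totals in place of the deposited normalization, the median log2 fold change of all genes was −0.73 for the tumor difference with exercise and −0.59 for the exercise difference with tumor, both of which use E(+)T(+), so these differences are to be read against the median of all genes.

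The stretches upstream of 4 genes are shown because these genes carry the contrast between the classes: Psmb8 and Psmb9 were lower, and Psmd4 and Psmc6 higher, in both T(+) libraries than in both T(−) libraries. They are RefSeq sequences on GRCm38.p6, the 250 bases before the start of the gene, read 5′ to 3′ on the gene's strand. Capitals mark matches on either strand to TGANNNNGC, searched as the element of NFE2L1 and NFE2L2, and to the interferon element, searched as a pair of GAAA boxes with 2 bases between them.
Psmb8, chr17:34197945-34198194, plus strand: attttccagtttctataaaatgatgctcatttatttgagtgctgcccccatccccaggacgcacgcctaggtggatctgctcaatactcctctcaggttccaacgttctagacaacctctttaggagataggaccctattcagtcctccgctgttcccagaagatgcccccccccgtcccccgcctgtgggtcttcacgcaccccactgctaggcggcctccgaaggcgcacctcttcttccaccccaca
Psmb9, chr17:34187331-34187580, minus strand: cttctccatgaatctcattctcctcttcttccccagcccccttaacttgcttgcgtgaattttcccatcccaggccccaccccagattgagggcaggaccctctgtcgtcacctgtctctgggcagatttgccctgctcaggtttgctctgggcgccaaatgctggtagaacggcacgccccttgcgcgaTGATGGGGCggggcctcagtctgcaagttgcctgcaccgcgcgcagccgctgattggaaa
Psmd4, chr3:95042615-95042864, minus strand: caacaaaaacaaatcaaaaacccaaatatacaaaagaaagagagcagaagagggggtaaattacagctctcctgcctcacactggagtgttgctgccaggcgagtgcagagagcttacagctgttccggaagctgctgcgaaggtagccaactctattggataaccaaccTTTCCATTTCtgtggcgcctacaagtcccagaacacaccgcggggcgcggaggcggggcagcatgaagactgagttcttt
Psmc6, chr14:45329574-45329823, plus strand: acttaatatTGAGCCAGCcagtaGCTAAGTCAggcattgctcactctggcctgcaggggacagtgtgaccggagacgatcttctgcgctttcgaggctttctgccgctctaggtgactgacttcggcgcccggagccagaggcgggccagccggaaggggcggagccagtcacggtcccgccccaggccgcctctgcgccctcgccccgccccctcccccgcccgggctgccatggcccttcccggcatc
Psmb9 held a TGANNNNGC match, Psmd4 a match to the interferon element and Psmc6 TGANNNNGC matches, and the window of Psmb8 held neither. Psmb9 and Psmb8 lie on chromosome 17 on either side of Tap1 (34187556 to 34197225), which encodes a peptide transporter of MHC class I loading. Sequences were found for 40 of the 48 genes, in 43 windows, some genes having more than 1 start. TGANNNNGC was found in 17 of the 43 windows (39.5%), against 35.2% of all 32851 windows of this length. The interferon element was in 3 windows (6.98% against 2.98%), those of Psmb3, Psmd4 and Psmd9, and in none of the 3 immunoproteasome windows. CCAAT, a common promoter box searched on both strands and not capitalized above, was in 14 windows (32.6% against 33.8%). The capitalized matches do not overlap one another in the windows shown, and a match is a match of letters only.

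Read depth varied widely within the set. Between 152 and 5191 reads were recovered for each of the 31 genes of the standard 26S particle, that is 7 alpha subunits, 7 constitutive beta subunits and 17 subunits of the 19S particle. Psma7 was among the deepest, with normalized read counts of 2863 in E(−)T(−), 2889 after exercise alone, 4579 with tumor alone and 4106 with both, and Psmd4 had 2009, 1856, 4525 and 3742 in the same order. Psma8, an alpha subunit known from the testis, had only 8 to 11 reads per library, and Psmb11, the catalytic subunit of the thymus proteasome, had 2 to 8. The immunoproteasome genes had 75 to 536 reads, which overlaps the lower standard subunits such as Psmb2 and Psma5.

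**Figure D1:**
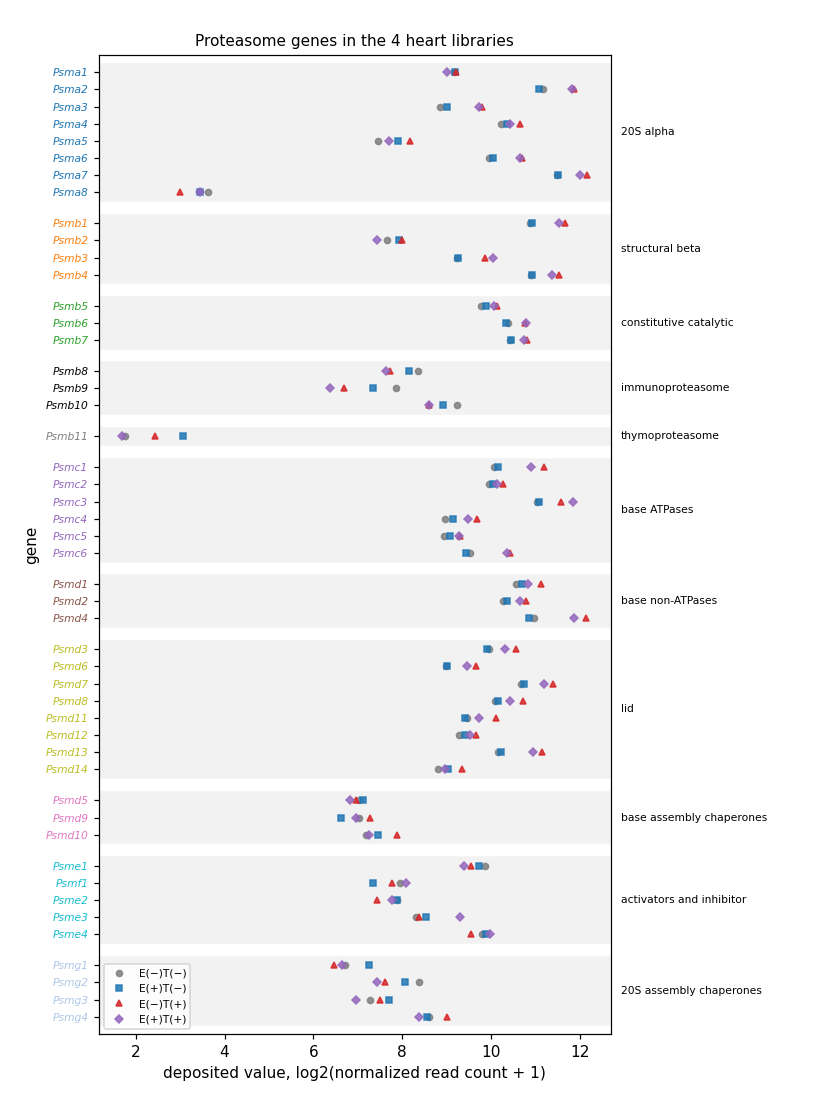
Deposited value of each of the 48 proteasome genes (x axis, log2 of the normalized read count + 1) in the 4 heart libraries, 1 point per library, with genes on the y axis grouped by role. In 27 genes, all of them standard subunits, both T(+) points lie to the right of both T(−) points, and in Psmb8, Psmb9 and Psmb10 both lie to the left. Under scaling to library totals, 8 of the 31 standard subunits are higher in E(+)T(+) than in E(+)T(−).

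Standard subunits were higher in the tumor-bearing heart. Without exercise, in E(−)T(+) vs. E(−)T(−), all 31 had a higher value, the median log2 fold change being 0.63 (1.55-fold), against a median of −0.02 over all genes, of which 48.9% were higher. The changes ran from 0.05 for Psma1 to 1.17 for Psmd4, and 30 of the 31 reached 0.32, the log2 value of the lower of the study's 2 fold thresholds, as 32.7% of all genes did in this direction. Without Psma8, the 7 alpha subunits had a median of 0.70, the 4 structural beta subunits 0.62, the 6 base ATPases 0.63, the 3 other base subunits 0.54 and the 8 lid subunits 0.64. The 3 constitutive catalytic subunits had the smallest median of these classes, 0.37. Reads of each gene in the 2 libraries were also set against the library sizes by a two-sided exact binomial test with Benjamini-Hochberg adjustment over 13725 genes and a threshold of 0.05, called the read test here, which speaks of 2 libraries and not of 2 conditions. By this read test 30 of the 31 were higher and none lower, against 26.5% and 26.4% of all genes. Over all 48 proteasome genes, the read test found 32 higher and 7 lower, 33 were up and 6 down by at least 0.32, and 4 (Psmd4, Psmc1, Psmd13 and Psmb9) changed by at least 2-fold, as 25.2% of all genes did. In bulk tissue, more RNA per cell and a larger share of cells of a kind cannot be told apart.

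Among the standard subunits, the 3 that were up by 2-fold without exercise, Psmd4, Psmc1 and Psmd13, belong to the regulatory particle. Psmd4 encodes the ubiquitin receptor also called Rpn10. Its reads numbered 1753, 2052, 5130 and 3422, and its tumor difference on the log2 scale was 1.17 without exercise and 1.01 (95% counting interval 0.93 to 1.09) with exercise. Both T(+) libraries lay above both T(−) libraries, and the T(−) libraries lay close together. Psmc1, a base ATPase, had normalized read counts of 1071, 1142, 2347 and 1913, with tumor differences of 1.13 (1.02 to 1.24) without and 0.74 (0.64 to 0.85) with exercise. Psmc6, another of the ATPases, had 729, 687, 1372 and 1315, with tumor differences of 0.91 (0.78 to 1.05) and 0.94 (0.80 to 1.07), so that its T(+) libraries lay close together as well. Psmd13, a lid subunit, had 1138, 1186, 2276 and 1957, with differences of 1.0 (0.90 to 1.11) and 0.72 (0.62 to 0.83). Psma3, an alpha subunit of the core, had 456, 513, 888 and 849, with differences of 0.96 (0.79 to 1.13) and 0.73 (0.57 to 0.89). Psmd13 and Psma3 were picked after their values were seen. Intervals, here and for all single genes and ratios, are from the Clopper-Pearson method at 95% and hold the error of counting alone. They treat each read as independent. Reads copied by PCR are not independent molecules, so the intervals may be too narrow even for this error.

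Between the exercised hearts, E(+)T(+) vs. E(+)T(−), 27 of the 31 standard subunits were higher, with a median of 0.41 against −0.02 over all genes, of which 48.8% were higher. This comparison shares no library with the one without exercise. Of the 31, 16 were up by at least 0.32 (30.2% of all genes) and 1 was down (32.7%), and the read test gave 24 higher and 1 lower (24.8% and 23.6% of all genes). The one that fell was Psmb2, a structural beta subunit, with normalized read counts of 199, 242, 255 and 171, that is a tumor difference of 0.35 (0.08 to 0.63) without exercise and −0.50 (−0.80 to −0.21) with it. Class medians were 0.51 for the alpha subunits without Psma8, 0.52 for structural beta, 0.28 for constitutive catalytic, 0.53 for base ATPases, 0.29 for other base subunits and 0.36 for the lid. Over all 48 genes, 26 were higher and 8 lower by the read test, 19 were up and 9 down by at least 0.32 (0 up and 30 down under scaling to library totals), and 2, Psmd4 and Psmb11, changed by at least 2-fold, as 20.5% of all genes did. Under scaling to library totals, which the globin reads of E(+)T(+) enter, the median of the standard subunits in this comparison was −0.31, and 0.41 relative to all genes, with 27 of the 31 above the median of all genes as before. As a share of the reads outside the globin genes, the 31 genes made up 0.499% (0.493 to 0.504), 0.504% (0.499 to 0.509), 0.706% (0.701 to 0.712) and 0.628% (0.622 to 0.634) of the 4 libraries.

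Taking the 4 libraries together, under the deposited normalization 27 of the 31 standard subunits had both T(+) libraries above both T(−) libraries, an order found in 27.4% of all genes. The exceptions were Psma1, Psma5, Psmb2 and Psmd14, and in none of the 31 did both T(+) libraries lie below. Under scaling to library totals, 8 of the 31 were higher in E(+)T(+) than in E(+)T(−). As a share of all reads, globin included, the 31 genes made up 0.455%, 0.462%, 0.651% and 0.394% of the 4 libraries. Psma1 encodes an alpha subunit and differed little anywhere, with normalized read counts of 570, 583, 588 and 512. Psmd14, the deubiquitinase of the lid, had 448, 523, 644 and 497. Across the 48 genes the tumor differences without and with exercise correlated with a Pearson r of 0.60 and a Spearman rho of 0.62, and 38 had the same sign. Across the 31 standard subunits these were 0.73 and 0.72, and across all 13725 genes 0.50 and 0.48. These are correlations across genes, whose points share the depth of each library, and genes are not replicates.

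**Figure D2:**
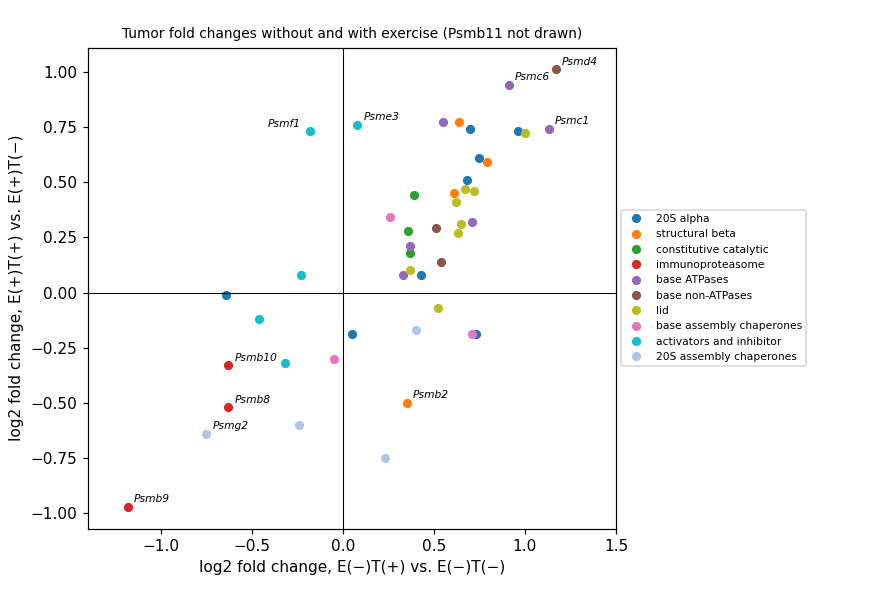
Log2 fold change of each proteasome gene between T(+) and T(−) without exercise (x axis) and with exercise (y axis), 1 point per gene, colored by role, with some of the genes the text describes named and Psmb11 not drawn. Under the deposited normalization 27 standard subunits lie to the upper right of 0 and the 3 immunoproteasome genes in the lower left, and scaling to library totals would lower the points on the y axis by about the shift of all genes, −0.73, with 8 of the 31 standard subunits then above 0.

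**Figure D3:**
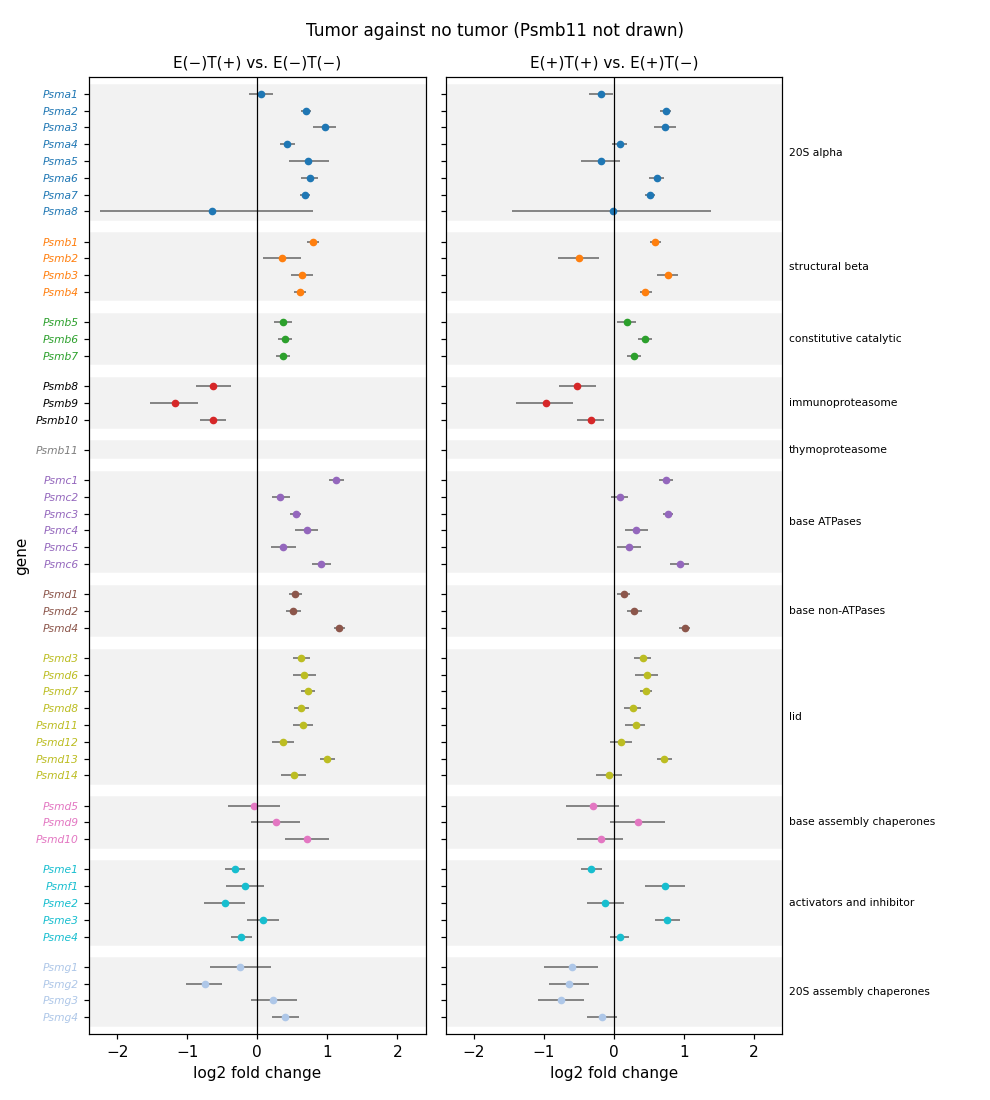
Log2 fold change of each gene (x axis) between T(+) and T(−), without exercise in the left panel and with it in the right one, with bars for the 95% counting interval, grouped by role on the y axis, Psmb11 not drawn. Standard subunits lie right of 0 in 31 of 31 and 27 of 31 cases, which for the right panel holds under the deposited normalization and relative to all genes but not under scaling to library totals, and Psmb8, Psmb9 and Psmb10 lie left of 0 in both panels.

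The ratio of the 19S to the 20S genes differed less between libraries than their level. The 17 genes of the 19S particle had 106 reads (104 to 109), 107 (105 to 109), 116 (115 to 118) and 111 (109 to 113) per 100 reads of the 14 standard 20S genes in the 4 libraries. Both T(+) libraries lay above both T(−) libraries, although the interval of E(+)T(+) met those of both T(−) libraries at 109. This order rests on Psmd4, which had 1753, 2052, 5130 and 3422 of the 19S reads. With Psmd4 left out, E(−)T(+) is still highest, but E(+)T(+) lies below E(+)T(−). Such a ratio is taken within a library and does not depend on the scaling between libraries. Since the kit reads the 3′ end of each transcript, reads are not divided by length here, and the ratios are compared between libraries and not read as the ratio of proteins. This and the other ratios to the 20S genes were added after the values had been seen.

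The immunoproteasome genes went the other way. Psmb8, Psmb9 and Psmb10 were each lowest in the T(+) libraries, while their constitutive partners Psmb5, Psmb6 and Psmb7 were each highest there. Psmb9 was covered by 202, 179, 115 and 75 reads, or normalized read counts of 231, 162, 101 and 82.2. It was highest in E(−)T(−) and lowest in E(+)T(+), and its tumor differences were −1.18 (−1.53 to −0.85) without exercise and −0.97 (−1.39 to −0.58) with it. Psmb8 had normalized read counts of 326, 284, 211 and 198, with tumor differences of −0.63 (−0.88 to −0.37) and −0.52 (−0.79 to −0.25). Psmb10 had 602, 485, 387 and 385, with tumor differences of −0.63 (−0.82 to −0.45) and −0.33 (−0.53 to −0.14). For both genes the T(+) libraries lay below both T(−) libraries and close to each other. All 3 were lower by the read test in both tumor comparisons, and 28.7% of all genes had both T(+) libraries below both T(−) libraries. Falls of at least 0.32 without exercise were seen in 3 of 3 immunoproteasome genes and in 34.1% of all genes.

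The differences were wider when each immunoproteasome gene was set against its partner. Per 100 reads of Psmb6, Psmb9 had 17.5 (15 to 20.4), 12.6 (10.7 to 14.7), 5.85 (4.80 to 7.06) and 4.68 (3.67 to 5.91) reads. Psmb10 had 43.6 reads (39.3 to 48.4) per 100 of Psmb7, then 34.6 (31.3 to 38.2), 21.8 (19.6 to 24.2) and 22.6 (20.1 to 25.4). Psmb8 had 37.4 (32.5 to 42.9) per 100 of Psmb5, then 29.9 (26.3 to 34), 18.8 (16.3 to 21.6) and 18.4 (15.6 to 21.6). Summed over the 3 pairs, there were 32.5 (30.2 to 34.9), 25.6 (23.9 to 27.4), 15.1 (14 to 16.3) and 14.7 (13.5 to 16) immunoproteasome reads per 100 constitutive reads. The intervals of the T(+) libraries overlapped each other and lay below those of the T(−) libraries in every pair. On the log2 scale the tumor difference of the ratio without exercise was −1.58 for Psmb9 to Psmb6, −1.0 for Psmb10 to Psmb7 and −0.99 for Psmb8 to Psmb5, and with exercise −1.41, −0.61 and −0.70. The exercise difference without tumor was −0.48, −0.33 and −0.32, and with tumor −0.31, 0.05 and −0.03. The 3′ ends of Psmb7, Psmb8 and Psmb10 overlap another gene on the opposite strand, and Psmb5 has near-identical copies, so their reads are less certain than those of Psmb6 and Psmb9.

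**Figure D4:**
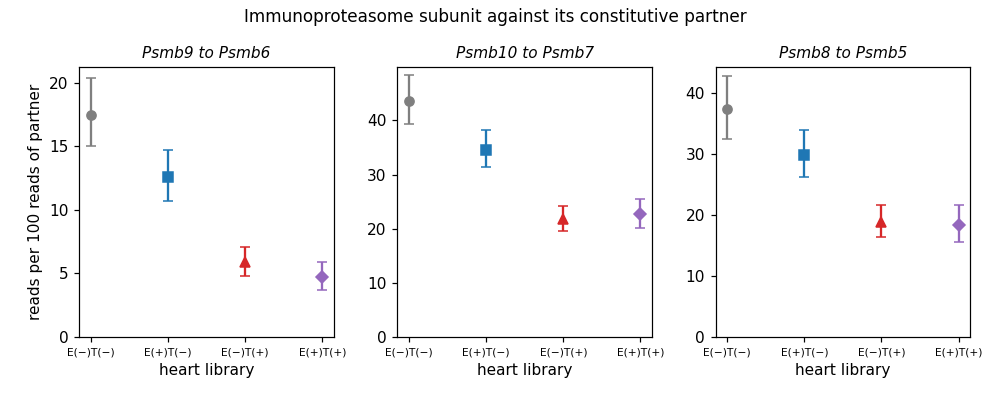
Reads of each immunoproteasome gene per 100 reads of its constitutive partner (y axis) in each of the 4 heart libraries (x axis), with bars for the 95% counting interval, 1 panel per pair. In every panel both T(−) libraries lie above both T(+) libraries, from 17.5 to 4.68 for Psmb9 to Psmb6 at the extremes.

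Among genes of the interferon response and of MHC class I, more were lower than higher with tumor. Of 22 such genes, 21 passed the minimum, and by the read test 14 were lower and 2 higher with tumor in mice without exercise, and 12 lower and 1 higher in exercised mice, with medians of −0.46 and −0.60. Over all genes, 26.4% were lower and 26.5% higher without exercise, and 23.6% and 24.8% with it. Irf1, an interferon-induced transcription factor, had normalized read counts of 533, 535, 195 and 202. Gbp3, an interferon-induced GTPase, had 136, 77.8, 36.0 and 46.0, and Ifngr2, a chain of the interferon gamma receptor, had 1066, 855, 311 and 374. In all 3 both T(+) libraries lay below both T(−) libraries. Tap1, between Psmb8 and Psmb9 on the chromosome, had 72.2, 32.4, 78.6 and 58.0 and did not share this order, with tumor differences of 0.12 (−0.36 to 0.61) and 0.82 (0.19 to 1.48). Ifng itself had at most 1 read in any library.

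Markers of other cells also differed between these libraries. The 4 MHC class II markers, all above 0 in every library, had summed normalized read counts of 3395, 3686, 354 and 999, so they were lowest in the same libraries as Psmb8, Psmb9 and Psmb10. The 12 leukocyte markers summed to 1937, 2169, 3170 and 1748, with 1 marker at 0 reads in E(−)T(+). Most of this sum was Lyz2 (409, 667, 1110 and 375) and Csf1r (1003, 987, 928 and 616). In exercised mice 8 of the 10 leukocyte markers over the minimum had higher values with tumor (median 0.35). The 6 neutrophil markers summed to 137, 96.6, 4068 and 6314, with 1 at 0 reads in E(−)T(−), and the 6 proliferation markers to 326, 321, 794 and 1226, so both were highest in the libraries in which the standard subunits were high. The 6 fibroblast markers summed to 25339, 30225, 55031 and 32034, most of it Dcn (20423, 22489, 40453 and 29409), and in exercised mice 5 of the 6 had lower values with tumor (median −0.93). The 5 endothelial markers summed to 6945, 5386, 6085 and 7438, but did not move together. With tumor 2 were higher and 3 lower in each comparison, running from −1.89 to 0.78 without exercise and from −0.82 to 1.21 with it. Of the 6 adipocyte markers (22090, 15581, 13540 and 21638), 1 had 0 reads in E(−)T(+) and Fabp4 made up most of the sum, while the median tumor difference of the 6 was −3.08 without and 2.16 with exercise. The 4 lung epithelium markers (582, 148, 503 and 1721) were highest in E(+)T(+). The part of these cells in the proteasome results was not tested.

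Among the activators and inhibitors of the core, the members parted. Psme1 and Psme2 encode the chains of PA28, the cap that interferon gamma also induces, and had lower values in both T(+) libraries, as the immunoproteasome genes did. Psme1 had normalized read counts of 933, 841, 748 and 673, with tumor differences of −0.32 (−0.46 to −0.18) and −0.32 (−0.47 to −0.17), both lower by the read test. Psme2 had 236, 235, 171 and 217, lower by the read test without exercise, −0.46 (−0.76 to −0.17), but not with it, −0.12 (−0.39 to 0.15). Together they gave 7.01 (6.57 to 7.47), 6.29 (5.93 to 6.67), 3.63 (3.41 to 3.87) and 3.77 (3.51 to 4.05) reads per 100 reads of the standard 20S genes. Both T(+) libraries lay below both T(−) libraries with no overlap of the intervals. Psme2 is almost identical over its 3′ end to Psme2b (99% over the last 300 bases), and Psme1 has a near-identical copy too, so their reads may have been divided.

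Psme3, the nuclear PA28 gamma, stood out in the exercised tumor-bearing heart. Its normalized read counts were 314, 370, 331 and 628, so that 3 libraries lay close together and E(+)T(+) above them. Its exercise difference with tumor was 0.92 (0.73 to 1.11) and its tumor difference with exercise 0.76 (0.58 to 0.95), which under scaling to library totals were 0.33 and 0.04. Its tumor difference without exercise was 0.08 (−0.15 to 0.31). Per 100 reads of the standard 20S genes it had 1.88 reads (1.66 to 2.12), 2.16 (1.96 to 2.39), 1.31 (1.18 to 1.45) and 2.66 (2.45 to 2.89), which does not depend on that scaling and was again highest in E(+)T(+). Psme4 encodes PA200, another nuclear cap, and had 879, 943, 751 and 998, with an exercise difference with tumor of 0.41 (0.27 to 0.55), or −0.18 under scaling to library totals, and a tumor difference without exercise of −0.23 (−0.37 to −0.08). Psmf1 encodes PI31, first described as an inhibitor of the core, and had 244, 162, 216 and 269, the lowest being E(+)T(−). Its exercise difference without tumor was −0.59 (−0.89 to −0.30) and its tumor difference with exercise 0.73 (0.45 to 1.02), or 0.01 under scaling to library totals. E(+)T(+) is also the library with the most erythroid reads, where the 8 erythroid markers in the files, out of 10 listed, summed to 3593604 against 508532 to 526658 in the others, and their part in the level of Psme3 was not tested.

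Without exercise, the chaperones that assemble the 20S core did not share a direction with tumor. In exercised mice all 4 had lower values with tumor. With tumor, 1 of the 4 rose and 1 fell by the read test without exercise (median −0.00), and with exercise 3 fell and none rose (median −0.62). Of all genes, 26.5% rose and 26.4% fell without exercise, and 24.8% rose and 23.6% fell with it. Psmg2 had normalized read counts of 331, 266, 196 and 171, with tumor differences of −0.75 (−1.02 to −0.50) and −0.64 (−0.93 to −0.36). Psmg1, its partner in a dimer, had 103, 150, 87.2 and 98.5, so that E(+)T(−) lay above the other 3, and Psmg3 had 154, 206, 181 and 123. Psmg4, which pairs with Psmg3, had 385, 373, 510 and 331 and was highest in E(−)T(+). Per 100 reads of the standard 20S genes the 4 chaperones had 5.83 (5.44 to 6.25), 5.82 (5.47 to 6.18), 3.85 (3.62 to 4.09) and 3.07 (2.83 to 3.31) reads. Both T(+) libraries lay below both T(−) libraries in this ratio.

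Of the 3 chaperones of the 19S base, Psmd10, also called gankyrin, had normalized read counts of 143, 174, 235 and 152. It stood highest in E(−)T(+), with a tumor difference without exercise of 0.71 (0.40 to 1.03) and an exercise difference with tumor of −0.62 (−0.93 to −0.32). Psmd5 had 128, 138, 123 and 112, and Psmd9 had 128, 97.6, 154 and 124, and neither passed the read test in any comparison. These 2 genes had only 102 to 174 reads per library.

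Exercise without tumor moved the set little. The 48 genes had a median exercise difference of 0.06 in E(+)T(−) vs. E(−)T(−), against 0.00 over all genes. Of the 48, 32 were higher, as 50.1% of all genes were, and 4 were up and 3 down by at least 0.32, as 20.5% and 21.7% of all genes were. The read test gave 3 higher and 4 lower, against 11.1% and 9.66% of all genes, and only Psmb11, at 2 and 8 reads (1.3, −0.67 to 4.93), reached 2-fold, as 10.6% of all genes did. The genes that passed were Psmg1 (0.54, 0.16 to 0.93), Psma5 (0.45, 0.16 to 0.75) and Psmg3 (0.42, 0.11 to 0.74) upward, and Psmf1, Psmb9 (−0.51, −0.81 to −0.22), Psmb10 (−0.31, −0.49 to −0.14) and Psmg2 (−0.31, −0.56 to −0.08) downward. Of the 31 standard subunits 25 were higher, between −0.11 and 0.45 with an SD across genes of 0.11, and Psma5 alone passed the read test. The SD across all genes was 0.68.

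In tumor-bearing mice the exercised library had slightly lower standard subunits. Of the 31, 28 were lower and 3 higher in E(+)T(+) vs. E(−)T(+), a comparison in which 49% of all genes were higher, with a median of −0.16 (0.90-fold), against −0.01 over all genes, and the read test gave 19 lower and 2 higher, against 20.3% and 20.6% of all genes. The differences ran from −0.58 for Psmb2 to 0.26 for Psmc3, and 4 were down by at least 0.32 (29.6% of all genes) and none up (27.2%). The lid had the lowest median of the larger classes, −0.24, with 8 of 8 lower and 7 by the read test. With Psmb11 and Psma8 left aside, the largest differences in the set were those of Psmd10 and Psmg4 (−0.62, −0.83 to −0.42) downward and Psme3 and Psme4 upward, and none of the 48 reached 2-fold, as 16.6% of all genes did. The immunoproteasome genes differed by −0.09 for Psmb8, −0.30 for Psmb9 and −0.01 for Psmb10, and none of the 3 passed the read test. Relative to all genes the median of the standard subunits was −0.14, and it was −0.15 under scaling to library totals. This difference uses the library E(−)T(+), as the tumor difference without exercise does. Across the 48 genes the exercise differences without and with tumor, which share no library, correlated with a Pearson r of −0.29 and a Spearman rho of −0.21, against 0.00 and 0.02 over all genes.

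**Figure D5:**
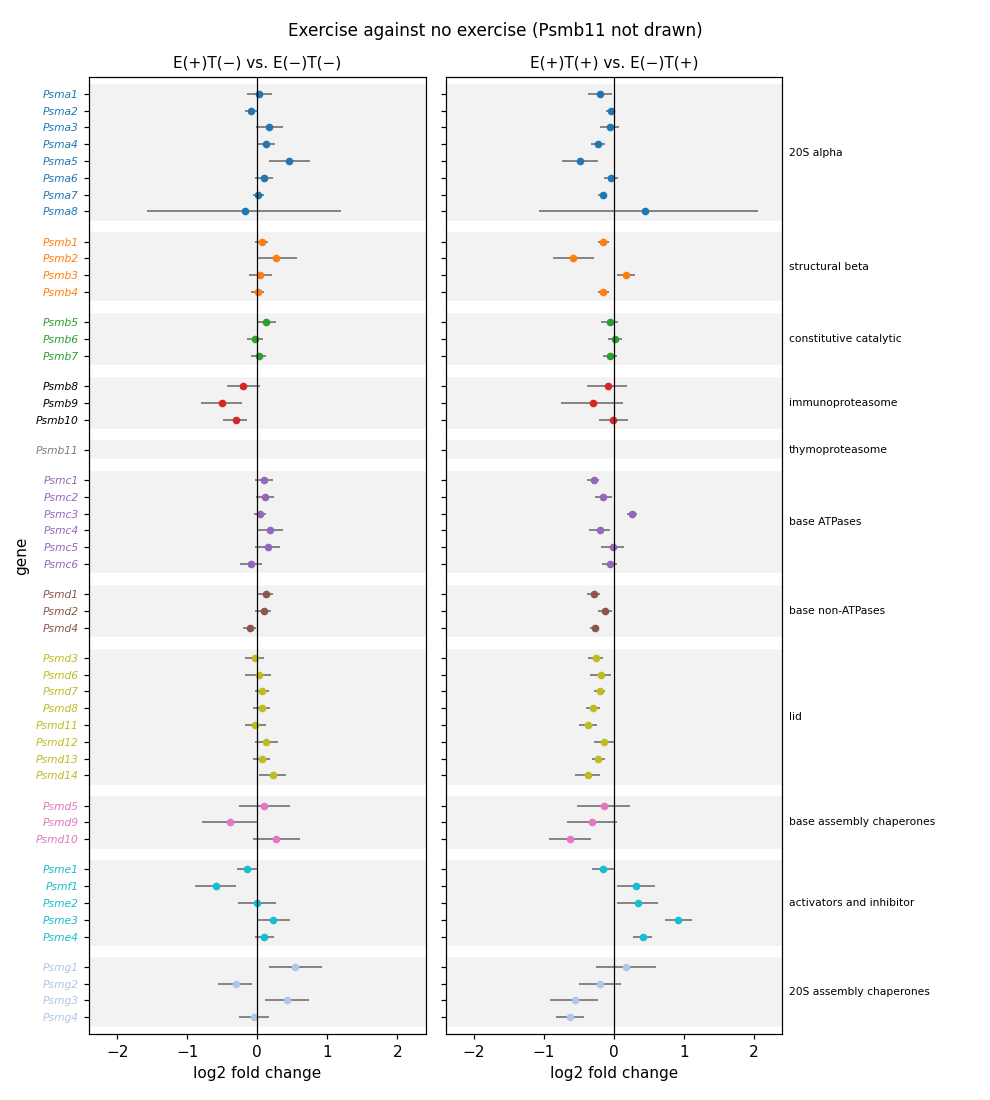
Log2 fold change of each gene (x axis) between E(+) and E(−), without tumor in the left panel and with it in the right one, with bars for the 95% counting interval, grouped by role on the y axis, Psmb11 not drawn. The standard subunits lie near 0 on the left (median 0.06) and mostly left of 0 on the right (median −0.16, or −0.74 under scaling to library totals), and Psme3 lies farthest to the right at 0.92, or 0.33 under that scaling.

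Genes that work with the proteasome differed among themselves. Of 18 partner symbols listed, some of them synonyms, 16 were found, with median tumor differences of 0.09 without and 0.03 with exercise. By the read test 7 were higher and 2 lower in each, where 26.5% and 26.4% of all genes were without exercise and 24.8% and 23.6% with it. Uchl5, a deubiquitinase of the 19S particle, had normalized read counts of 145, 126, 323 and 227, and its docking site Adrm1 had 344, 394, 639 and 520, so both had both T(+) libraries above both T(−) libraries. Zfand2a, a stress-induced partner, had 70.1, 128, 107 and 126.

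NFE2L1 is the transcription factor that raises proteasome genes when the particle is inhibited. Nfe2l1 itself had normalized read counts of 1134, 1055, 1063 and 947 and differed by −0.09 to −0.17 in the 4 comparisons. Of the 14 genes of its axis over the minimum, 6 were higher and 4 lower by the read test in each tumor comparison, with medians of 0.12 and 0.16 (all genes 26.5% and 26.4% without exercise, 24.8% and 23.6% with it). Maff, a small partner of such factors, had 50.7, 165, 283 and 680, lowest in E(−)T(−) and highest in E(+)T(+), while Nfe2l2, a related factor, had 621, 702, 225 and 171. Syvn1, a ubiquitin ligase of the endoplasmic reticulum, had 188, 234, 121 and 78.9.

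Of the 14 symbols listed for ubiquitin genes and those that activate and pass on ubiquitin, 13 were found and 12 passed the minimum. These 12 had medians of 0.18 and 0.21 in the tumor comparisons. By the read test 6 were higher and 1 lower, then 7 higher and 2 lower, beside 26.5% and 26.4%, then 24.8% and 23.6%, of all genes. Rps27a, which encodes ubiquitin fused to a ribosomal protein, had 2246, 2355, 5366 and 3151, with both T(+) libraries above both T(−) libraries. Ube2d1, a conjugating enzyme, had 137, 110, 65.2 and 63.5, and Uba6, an activating enzyme, had 54.8, 44.4, 38.8 and 10.0. Ubb, a polyubiquitin gene, had at most 1 read in any library, so its level cannot be given here.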

How the data were processed

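Heart RNA of 4 groups, 1 library each, was sequenced with the QuantSeq 3′ kit. The submitters' notes name Bowtie2, bedtools and mm10, and per the paper's methods the authors normalized read counts by a quantile method of edgeR. The deposited values are on a log2 scale, log2(normalized read count + 1). They were given back within 0.000505 by quantile-adjusted counts at a dispersion of 0.149, and of 25460 values of 5 to 99 recovered reads 100% were whole to within 0.1. The recovery and the read test were tested on simulated data.

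Fold changes are differences of deposited values, and 2-fold and 1.25-fold are the study's own thresholds. No test across conditions was run, since 1 library per group leaves at most 1 residual degree of freedom, in a model with additive tumor and exercise terms. The read test used relative library sizes of 0.872, 1.11, 1.13 and 0.914 for E(−)T(−), E(+)T(−), E(−)T(+) and E(+)T(+). Intervals are at 95%. Members and gene lists were chosen with earlier results of these data known. Named were all catalytic, immunoproteasome, activator and inhibitor genes, the 2 largest rises and falls per comparison of members reaching a mean of 16, and 3 genes per pathway list. Other single genes given with values were chosen after their values were seen. A gene of the interferon list and a motif are not reported here. The end of a transcript was its last 500 bases for overlaps with other genes (8 of the 48 members, 2 of them on the same strand) and its last 300 for copies (at least 95% identity over at least 100 bases, 7 members). Alternatives covered scaling, pseudocount, minimum and depth. Sequences of proteins were not used here. Figures were drawn with matplotlib 3.10.9, and values computed in Python 3.11.15 (pandas 2.3.3, numpy 2.4.6, scipy 1.17.1).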

Additional observations from a re-analysis of the deposited data

Results flagged for a closer look

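For 7 genes the exercise difference had opposite signs without and with tumor, each with a counting interval that leaves out 0, under the deposited normalization, as in 8.09% of all genes. Of the 7, Psma4, Psmc4, Psmd1 and Psmd14 did not pass the read test without tumor. Without tumor and with tumor, in this order, the log2 fold changes of exercise were 0.45 and −0.48 for Psma5, 0.13 and −0.22 for Psma4, 0.18 and −0.20 for Psmc4, 0.12 and −0.29 for Psmd1, 0.22 and −0.37 for Psmd14, 0.42 and −0.56 for Psmg3, and −0.59 and 0.32 for Psmf1 (−0.27 with tumor under scaling to library totals). For Psmb2 the tumor difference had opposite signs, 0.35 without exercise and −0.50 with it, opposite signs of this kind being found in 5.07% of all genes. With 1 library per group, the difference between these changes was not tested. Psma5 has near-identical copies, and the ends of Psmd1 and Psmg3 overlap another gene on the same strand.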

How the results depend on the processing

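No paired analysis was possible because each group has 1 library, and for the same reason no library could be left out of a group. Scaling to library totals, which the globin reads of E(+)T(+) enter, moved results of both comparisons that use this library. For the exercise difference with tumor the median of the 48 genes was −0.74 (reported −0.15), 6 genes changed by at least 2-fold (0) and 44 by at least 0.32 (12, with 4 up and 8 down, against 1 up and 43 down, or 3 and 15 without genes over 1% of a library), the immunoproteasome median was −0.67 (−0.09) and that of the activators and inhibitor turned to −0.25 (0.34), as did Psmf1 (−0.27), Psme4 (−0.18), Psmc3 (−0.32) and Ifngr2 (−0.32), each reported above 0. For the tumor difference with exercise the median was −0.48 (0.24), 10 genes changed by at least 2-fold (2), the immunoproteasome median was −1.23 (−0.52), and the medians of structural beta (−0.20), base ATPases (−0.19) and lid subunits (−0.36) turned negative, with 0 up and 30 down by at least 0.32 against 19 and 9, or 13 and 14 without genes over 1% of a library. Only classes with a reported median of at least 0.32 in either direction were checked for a turn. The alpha subunits with Psma8 (0.29), the constitutive catalytic (0.28) and the other base subunits (0.29) lay under this. The scaling put the median of all genes at −0.73, so these fall below 0 as well. Of the single genes followed, Adrm1 (−0.32) and Rps27a (−0.30) turned there too, but not every gene was followed. As reported 27 of the 31 standard subunits lay above 0, and under library totals 8 did. For the tumor difference without exercise the 2-fold count was 2 (4) under library totals with or without such genes, and the split at 0.32 was 24 up and 10 down (33 and 6). The 2-fold count was 0 (1) for the exercise difference without tumor and 1 (2) for the tumor difference with exercise with a pseudocount of 4, a minimum mean of 16, or without members that have near-identical copies, an alternative added after seeing the data, as was leaving out members that overlap another gene. With libraries subsampled to the smallest, 1 gene (0) reached 2-fold in the exercise difference with tumor. Without members that overlap another gene, Psmb9 alone is left of the immunoproteasome, at −0.51, −1.18, −0.30 and −0.97 for the exercise difference without tumor, the tumor difference without exercise, the exercise difference with tumor and the tumor difference with exercise (medians of the 3 genes −0.31, −0.63, −0.09 and −0.52). Of the 156 other values for whole comparisons and the immunoproteasome under the alternatives, 140 stayed close to the reported value. For a median, close meant within the medians of the bounds of the single-gene counting intervals. Having no minimum, or a minimum in 1 of the 2 libraries compared, kept the same 48 genes. Values under these alternatives could therefore not move, and they are counted among the 140. A minimum mean of 16, and leaving out members with near-identical copies, kept all 3 immunoproteasome genes. The immunoproteasome medians could not move there either, and they are counted too. Psmb8, Psmb9 and Psmb10 were lower in all 4 comparisons under every scaling, pseudocount, minimum and depth tried, but for the exercise difference with tumor none passed the read test and as reported only 2 of the 3 lay below the median of all genes. Depth limits Psmb11 and Psma8, at 2 to 11 reads.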
